A study of Mus musculus with 2 samples.

Results

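The immune-related transcripts Serpina3n, C4b, H2-D1, H2-K1, B2m, H2-T23, Tap1, Psmb8 and Psmb9 were followed through the oligodendrocyte lineage of the mouse optic nerve. They are 9 of the 31053 genes measured and were chosen by name, as genes linked to disease-associated oligodendrocytes and to MHC class I antigen presentation, at a time when results of these data were known. Their levels and ratios are therefore a description of 2 libraries and carry no test. The single cell RNA-seq (scRNA-seq) study compared the injury site of the optic nerve 2 weeks after optic nerve crush (ONC) with the uninjured nerve. Each library came from 5 optic nerves, pooled over male and female Wildtype mice of the 129S1/SvlmJ strain, and neither group carried a transgene. The injured mice were crushed at 8 weeks of age and sampled at 10 weeks, and the uninjured mice were also 10 weeks old, while the labels give P56 for both. The treatment label of the uninjured sample also mentions crush, and the titles were used to assign the groups. The authors typed each cell barcode as oligodendrocyte progenitor cell (OPC), newly formed oligodendrocyte (NFO) or oligodendrocyte, and barcodes of other cell types were not analysed here.

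MHC class I molecules display short peptides from inside a cell to cytotoxic T cells. Each consists of a heavy chain, such as H2-D1 or H2-K1, and the invariant light chain B2m, and the peptides are cut by the proteasome (Psmb8 and Psmb9 are its interferon-inducible subunits) and carried into the endoplasmic reticulum by the Tap1 and Tap2 transporter. C4b encodes complement component C4, and Serpina3n encodes a secreted inhibitor of serine proteases. Serpina3n, C4b and class I genes are known from oligodendrocytes and astrocytes in several disease and injury models, and class I genes are widely induced by interferons.

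In GRCm38, the build of the authors' mm10 alignment, 7 of the 9 genes lie within 2036839 bases of chromosome 17, between 33996017 and 36032855. In the GENCODE vM21 annotation this stretch holds, in order of start, H2-K1 (ENSMUSG00000061232, chr17:33996017-34000347, minus strand), Psmb9 (chr17:34181987-34187764, minus), Tap1 (chr17:34187553-34197225, plus), Psmb8 (chr17:34197721-34201454, plus), C4b (ENSMUSG00000073418, chr17:34728380-34743882, minus), H2-D1 (ENSMUSG00000073411, chr17:35262730-35267499, plus) and H2-T23 (chr17:36029773-36032855, minus). B2m (ENSMUSG00000060802) lies at chr2:122147686-122153083 and Serpina3n (ENSMUSG00000021091) at chr12:104406729-104414329, both on the plus strand. All 9 are annotated as protein-coding genes.

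RefSeq promoter windows of 250 bases before and 50 after the start (GRCm38.p6) were matched for 8 of the 9 genes, all but C4b. The 4 upstream stretches below belong to the genes with most UMIs among them and show how alike the heavy chain promoters are. Capitals mark matches, on either strand, to GAAANNGAA or GAANNGAAA, which are 2 overlapping shortened forms of the interferon-stimulated response element, and to GGGNNTTCC, a pattern of NF-kB sites. This pattern has a fixed length, so NF-kB sites of another length were not searched for and are not marked. A stretch without a match can therefore still hold such a site. The sequences run 5′ to 3′ on the strand of the gene, at chr17:35262844-35263093 (plus) for H2-D1, chr17:34000348-34000597 (minus) for H2-K1, chr2:122147437-122147686 (plus) for B2m and chr12:104406458-104406707 (plus) for Serpina3n.
H2-D1: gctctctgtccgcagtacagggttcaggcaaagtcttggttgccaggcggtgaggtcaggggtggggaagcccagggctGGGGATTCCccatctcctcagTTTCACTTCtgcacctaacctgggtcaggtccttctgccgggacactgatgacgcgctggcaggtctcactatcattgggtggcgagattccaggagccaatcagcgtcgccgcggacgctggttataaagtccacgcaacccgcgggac
H2-K1: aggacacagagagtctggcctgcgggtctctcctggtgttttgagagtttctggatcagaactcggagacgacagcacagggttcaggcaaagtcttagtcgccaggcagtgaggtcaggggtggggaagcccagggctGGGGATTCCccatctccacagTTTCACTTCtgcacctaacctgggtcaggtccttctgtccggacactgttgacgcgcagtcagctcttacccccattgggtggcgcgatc
B2m: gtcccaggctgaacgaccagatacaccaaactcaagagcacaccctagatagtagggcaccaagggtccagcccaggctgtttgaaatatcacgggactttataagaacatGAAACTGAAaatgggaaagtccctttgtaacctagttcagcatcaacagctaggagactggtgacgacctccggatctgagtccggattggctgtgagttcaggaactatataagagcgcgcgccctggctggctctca
Serpina3n: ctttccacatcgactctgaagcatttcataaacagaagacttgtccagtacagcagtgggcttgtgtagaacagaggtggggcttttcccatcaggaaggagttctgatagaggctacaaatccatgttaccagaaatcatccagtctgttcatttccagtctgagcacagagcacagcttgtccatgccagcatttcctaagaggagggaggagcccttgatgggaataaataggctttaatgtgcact

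The upstream stretches of H2-D1 and H2-K1 carried the same pair of matches, GGGGATTCC followed by TTTCACTTC. The RefSeq start of H2-D1 lies downstream of its GENCODE start, so the stretch printed for it falls inside the GENCODE gene. In H2-D1 the matches began 171 and 150 bases before the RefSeq start, and in H2-K1 111 and 90 bases before it. In a global alignment, 170 of the 250 bases of the 2 heavy chain genes were identical (68.0%), against 135 between H2-D1 and B2m and 125 between H2-K1 and B2m. B2m held GAAACTGAA, beginning 139 bases before its start. Serpina3n matched none of the patterns searched, which also included TTCNNNGAA (STAT sites) and CCAAT. Among 32851 promoter windows of the same length, 8.56% held GAAANNGAA, 7.52% GAANNGAAA, 5.82% GGGNNTTCC, 8.30% TTCNNNGAA and 37.4% CCAAT. A STAT pattern was found in Psmb8 (TTCCCAGAA), and H2-T23 held a GAAANNGAA match (TTCTCTTTC). Tap1 and Psmb9 are transcribed away from each other, and their promoter windows share 275 of 300 bases. A match is a stretch of letters and does not show that a factor was bound.

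The deposited normalized expression (NE), a natural log value per barcode, was turned back into whole UMIs (unique molecular identifiers, which count RNA molecules). The uninjured library held 58 OPC, 44 NFO and 857 oligodendrocyte barcodes, and the injured library 17, 100 and 293. The median depth of oligodendrocytes was 3060 UMIs without injury and 1268 UMIs with it. Nuclear Malat1 took a median of 5.27% of UMIs in the former and 0.692% in the latter. NFO barcodes had a median of 0.154% and 0.112% Malat1 and a median of 1259.5 and 1258.5 UMIs. No barcode sequence was shared by the libraries. Levels are given as CPM, a gene's UMIs scaled to a total of 1000000 UMIs summed over a type. With 1 library per condition there is no replicate check, and all intervals are 95% intervals for counting error alone: exact Poisson for CPM, exact conditional for ratios and exact binomial for shares of barcodes. A gene with at least 50 summed UMIs in a type was called higher at a CPM ratio (injured over uninjured) of at least 2 and lower at a ratio of at most 0.5.

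The lineage types carried their markers. The 6 OPC markers (Pdgfra, Cspg4 and others) summed to 8084 CPM in uninjured OPCs, 2890 CPM in NFOs and 13.5 CPM in oligodendrocytes. The 10 oligodendrocyte markers had the opposite order, summing to 2492, 10347 and 70072 CPM in uninjured OPCs, NFOs and oligodendrocytes. The myelin genes Mag (52.5, 839 and 4043 CPM) and Mog (35.0, 244 and 3208 CPM) followed it. Mobp (829 and 776 CPM) and Aspa (1 and 0 UMIs) were not higher in NFOs than in OPCs. The 6 NFO markers summed to 1558, 5004 and 1134 CPM, though Enpp6 was at 404 CPM in NFOs and 524 CPM in oligodendrocytes. In the injured library each list also had its highest sum in its own type. Summed over their list, the immune markers differed between the libraries in every type. The 13 immune markers, among them Ptprc, Lyz2 and Ctss, gave 123 UMIs (29.6 CPM) in uninjured and 669 UMIs (291 CPM) in injured oligodendrocytes. In NFOs they gave 2 UMIs (21.2 CPM) and 228 UMIs (648 CPM), and in OPCs 8 (46.7 CPM) and 30 (255 CPM). An immune marker UMI was present in 8.87% of uninjured and 81.2% of injured oligodendrocyte barcodes. Immune cells express class I genes too, and the part of their RNA in the ratios below was not measured. Ratios are also given without the barcodes that had an immune marker UMI. A shallow barcode can lack a marker UMI and still hold immune RNA.

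In injured oligodendrocytes, the light chain B2m and the heavy chains H2-D1 and H2-K1 were all present at a higher level than in uninjured ones. Serpina3n was also higher over all barcodes, and C4b, which was abundant without injury, differed least. In total, 4 of the 5 members with enough UMIs were called higher and 0 lower, where 5.98% of the 8591 genes tested were called higher and 4.06% lower. Since the genes were chosen with these ratios known, nothing is read from that difference. The median ratio of the 5 was 2.80, beside 1.03 over all genes tested.

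H2-D1, a classical class I heavy chain, had 551 UMIs in uninjured oligodendrocytes (133 CPM, 122 to 144) and 1476 UMIs in injured ones (641 CPM, 609 to 675). The ratio was 4.83 (4.37 to 5.33). The share of barcodes with an H2-D1 UMI was 23.5% (20.7 to 26.4) without and 51.9% (46.0 to 57.7) with injury. Depth differed both ways: the injured median was lower (1268 against 3060 UMIs), but among barcodes of at least 5000 UMIs it was higher (21719 against 9737.5). Shares at equal depth are given below. H2-K1, another classical heavy chain, was at 41.2 CPM (171 UMIs) and 116 CPM (266 UMIs), a ratio of 2.80 (2.30 to 3.42). B2m, which every class I molecule needs to reach the cell surface, was at 40.7 CPM (169 UMIs) and 197 CPM (454 UMIs), a ratio of 4.84 (4.05 to 5.81). For all 3 genes the intervals of the libraries were apart. Of the 8591 genes, B2m ranked 104, H2-D1 106 and H2-K1 219 by ratio.

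Serpina3n was at 405 CPM in uninjured (1681 UMIs, interval 386 to 425) and 920 CPM in injured oligodendrocytes (2118 UMIs, 881 to 960), a ratio of 2.27 (2.13 to 2.42). C4b was at 1253 CPM (5200 UMIs, 1219 to 1288) and 1791 CPM (4123 UMIs, 1737 to 1846), a ratio of 1.43 (1.37 to 1.49) that was below the 2-fold rule. The share of barcodes with a C4b UMI was 63.7% without and 64.2% with injury. For Serpina3n the share went against its ratio, at 53.8% (50.4 to 57.2) without and 44.4% (38.6 to 50.3) with injury. Its mean NE was 0.953 and 1.02. Depth was not equal in these shares. In the last 500 bases of its longest transcript, 63 of 401 windows of 100 bases also occur in C4a, a near-identical neighbour with no row in the tables, so the C4b counts cannot be fully told apart from C4a. No such window was shared by Serpina3n, H2-D1, H2-K1 or B2m with another gene.

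The peptide-loading members were close to the limit of detection. Tap1, which pumps peptides toward the heavy chains, had 0 UMIs in 857 uninjured oligodendrocyte barcodes and 5 UMIs in 3 of 293 injured ones. Psmb8 had 0 and 7 UMIs, and Psmb9 0 and 2 UMIs. By the floor of 3 counts, 0 of 857 uninjured barcodes for Tap1, Psmb8 and Psmb9 allows a share of up to 0.350% with a UMI, and the exact binomial interval ends at 0.43%. Set against a floor of 3 UMIs over the uninjured class, the ratio was 4.21 for Psmb8 and 3.004 for Tap1. The exact intervals of the ratios, which also count the error of the injured UMIs, began lower, at 2.60 for Psmb8, 1.65 for Tap1 and 0.338 for Psmb9, and had no upper end. The 55 injured oligodendrocyte barcodes with no immune marker UMI held 0 UMIs of Tap1 and 1 of Psmb8. Of the Psmb8 UMIs, 4 lay in barcodes under 1000 UMIs. The part of immune RNA in these counts was not tested. H2-T23, the nonclassical heavy chain known as Qa-1, had 8 UMIs in uninjured and 7 in injured oligodendrocytes, a ratio of 1.58 (0.487 to 4.98). In NFOs and OPCs these 4 genes had at most 3 UMIs in either library, so differences there were not detectable at this depth.

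**Figure D1:**
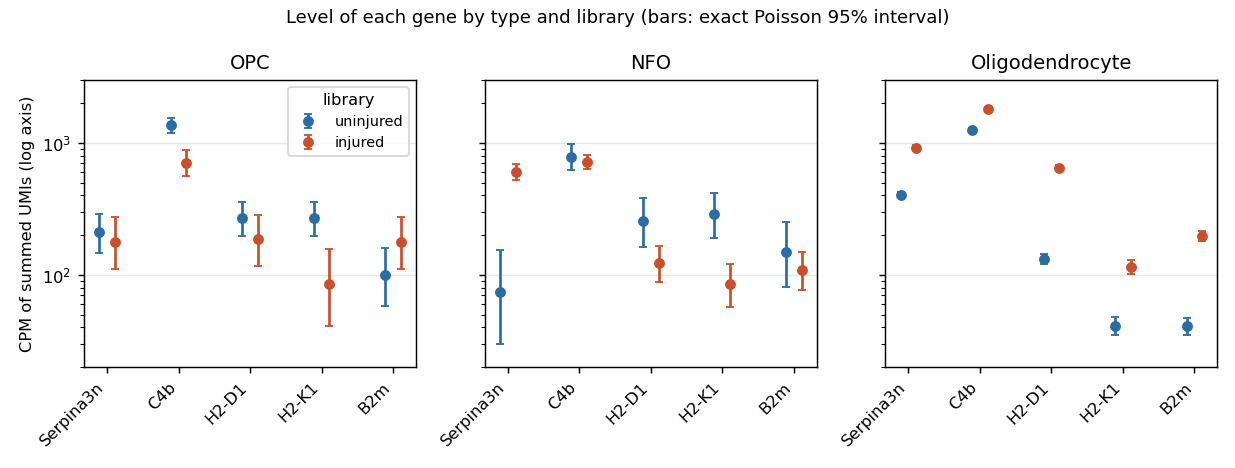
CPM of summed UMIs (log axis) of the 5 genes with most UMIs in OPCs, NFOs and oligodendrocytes, uninjured in blue and injured in orange, with exact Poisson 95% intervals for counting error. In oligodendrocytes all 5 injured points lie above the uninjured ones, from 116 against 41.2 CPM for H2-K1 to 1791 against 1253 CPM for C4b.

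NFOs differed from oligodendrocytes in which members were higher. Serpina3n had 7 UMIs in uninjured NFOs (74.4 CPM, 29.9 to 153) and 212 UMIs in injured ones (603 CPM, 524 to 689), a ratio of 8.10 (3.86 to 20.4), which ranked 10 of 1695 genes. H2-D1 was lower, with 24 UMIs (255 CPM) and 43 UMIs (122 CPM) and a ratio of 0.48 (0.284 to 0.826). H2-K1 was lower as well, with 27 UMIs (287 CPM) and 30 UMIs (85.3 CPM) and a ratio of 0.30 (0.171 to 0.520). C4b was at 786 CPM (74 UMIs) and 719 CPM (253 UMIs), a ratio of 0.91 (0.703 to 1.20), and B2m at 149 CPM (14 UMIs) and 108 CPM (38 UMIs), a ratio of 0.73 (0.385 to 1.45), both with intervals that included 1. Thus 1 of the 5 members tested was called higher and 2 lower, where 13.3% of the 1695 NFO genes were called higher and 4.01% lower.

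Few barcodes carried these NFO values. Of the 212 Serpina3n UMIs in 100 injured NFO barcodes, 4 barcodes held 59.0% and 8 held 83.0%, and 30 of the 100 had any. The barcode with the most had 48 Serpina3n UMIs among 26432, with 32 UMIs of Enpp6 and 58 of Fyn, markers of newly formed oligodendrocytes. The barcode ranked 3 had 26 Serpina3n UMIs beside 62 of the astrocyte marker Gfap, and astrocytes are known to express Serpina3n. The barcode ranked 5 had 18 Serpina3n UMIs among 2440, with 3 of Gfap and 0 of Enpp6 and Fyn. The barcode ranked 8 had 10 among 2691, with 18 of Enpp6 and 2 of Fyn. Both fall in the class of 1000 to under 5000 UMIs. Without the barcode with most Serpina3n UMIs in each library the ratio was 9.43, in barcodes with no Gfap UMI 8.04 (3.61 to 22.2), and in barcodes of 1000 to under 5000 UMIs 7.77 (2.51 to 38.9). It was 2.31 when each barcode counted equally, and 2.70 (0.929 to 8.37, 7 and 10 UMIs) in barcodes with no immune marker UMI. Among uninjured NFOs, 1 barcode of 5408 UMIs held 23 of the 51 UMIs of H2-D1 and H2-K1 (45.1%), with 7 UMIs of B2m. This barcode also had 23 UMIs of the oligodendrocyte markers, 18 of the OPC, 16 of the NFO and 1 of the astrocyte markers. It had 0 of the immune, endothelial and pericyte or fibroblast markers. Without the barcode with most UMIs in each library, the ratio of H2-D1 was 0.71, no longer at most 0.5, and that of H2-K1 was 0.40, from fewer than 50 UMIs. With each barcode counted equally, the ratios were 1.11 for H2-D1 and 1.26 for H2-K1, so the direction turned in NFOs for both heavy chains.

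OPCs were the least sampled type, with 17 injured barcodes. C4b was at 1360 CPM in uninjured OPCs (233 UMIs, 1191 to 1546), found in 87.9% of barcodes, and at 706 CPM in injured ones (83 UMIs, 562 to 875), found in all 17. The ratio was 0.52 (0.399 to 0.669). H2-K1 was at 268 CPM (46 UMIs) and 85.0 CPM (10 UMIs), a ratio of 0.32 (0.143 to 0.636). H2-D1 was at 268 and 187 CPM, with a ratio of 0.70 (0.399 to 1.18), and Serpina3n at 210 and 179 CPM, with a ratio of 0.85 (0.471 to 1.496). B2m, with 17 and 21 UMIs, was under the minimum of 50 (ratio 1.80, 0.904 to 3.63). Of the 4 members tested 0 were called higher and 1 lower, where 10.3% of 993 OPC genes were called higher and 6.45% lower. In OPC barcodes of 1000 to under 5000 UMIs the ratio of C4b was 1.01, and that of H2-K1 was 0.66 from fewer than 50 UMIs.

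The median gene was itself higher in the injured library, by 0.24 (log2) in OPCs, 0.20 in NFOs and 0.05 in oligodendrocytes. Relative to that median, the ratios in NFOs were 7.04 for Serpina3n, 0.80 for C4b, 0.42 for H2-D1, 0.26 for H2-K1 and 0.63 for B2m. In OPCs they were 0.72 for Serpina3n, 0.44 for C4b, 0.59 for H2-D1 and 0.27 for H2-K1, which puts C4b past the 2-fold rule. This scaling moved the share of higher genes among those called from 61.4% to 26.8% in OPCs and from 76.9% to 60.0% in NFOs, and from 59.6% to 52.8% in oligodendrocytes. It changed no direction of a member.

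**Figure D2:**
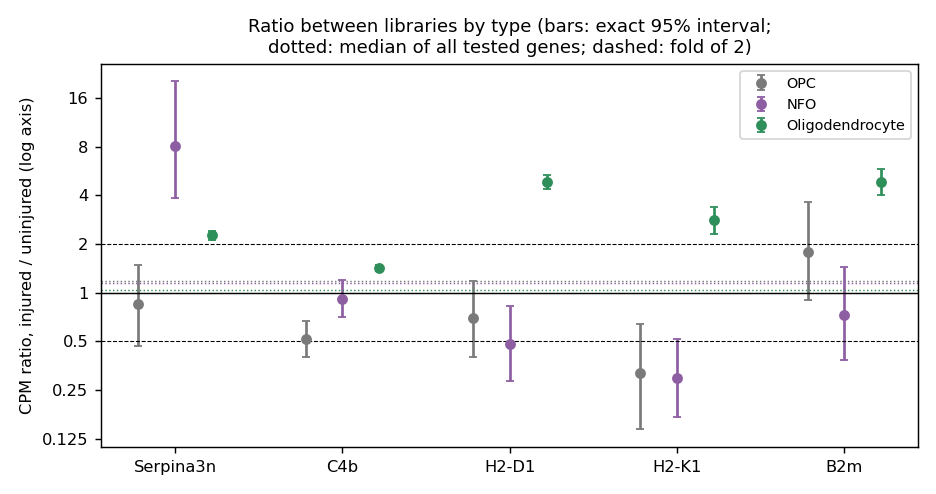
CPM ratio, injured over uninjured (log axis), of 5 genes in each type, with exact 95% intervals, the median of all tested genes as dotted lines and the 2-fold rule as dashed lines. H2-D1 and H2-K1 lie above 1 in oligodendrocytes (4.83 and 2.80) and below 1 in NFOs (0.48 and 0.30), and Serpina3n is highest in NFOs (8.10).

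Levels differed between the types within each library. In the uninjured nerve, H2-D1 was at 268 CPM in OPCs, 255 CPM in NFOs and 133 CPM in oligodendrocytes, and the first 2 did not differ beyond their counting error (NFO over OPC 0.95, 0.554 to 1.59). H2-K1 was at 268, 287 and 41.2 CPM, so that oligodendrocytes held 0.15 times the OPC level (0.110 to 0.217). B2m was at 99.2, 149 and 40.7 CPM, again lowest in oligodendrocytes. Serpina3n had the other order, with 405 CPM in oligodendrocytes, 210 CPM in OPCs and 74.4 CPM in NFOs. C4b was alike in OPCs and oligodendrocytes (1360 and 1253 CPM, ratio of oligodendrocytes to OPCs 0.92, 0.808 to 1.06) and lower in NFOs (786 CPM).

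In the injured nerve, oligodendrocytes held the highest level of each of these 5 genes, though the intervals for H2-K1 overlapped in all types. H2-D1 in oligodendrocytes was 5.25 times its NFO level (3.87 to 7.28) and 3.43 times its OPC level (2.25 to 5.49). C4b was 2.49 times its NFO level (2.19 to 2.84) and 2.54 times its OPC level (2.04 to 3.19). Serpina3n was 1.53 times its NFO level (1.33 to 1.77) and 5.15 times its OPC level (3.36 to 8.34). B2m in oligodendrocytes was 1.83 times its NFO level (1.31 to 2.61) and did not differ from OPCs beyond counting error (1.10, 0.714 to 1.80). Per immune marker UMI of the same type, injured oligodendrocytes held 2.21 UMIs of H2-D1, OPCs 0.733 and NFOs 0.189. For B2m these figures were 0.679, 0.70 and 0.167, and for H2-K1 0.398, 0.333 and 0.132, so for both genes oligodendrocytes and OPCs were close to each other and NFOs lower. In uninjured oligodendrocytes, with 123 immune marker UMIs, the figures were higher, at 4.48 for H2-D1, 1.37 for B2m and 1.39 for H2-K1. What part of the class I UMIs came from immune RNA was not tested.

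Barcode depth changed the direction of the ratio for C4b, and its size but not its direction for the class I genes. For Serpina3n the interval of the ratio excluded 1 only in the deep barcodes. In oligodendrocytes of at least 5000 UMIs (282 uninjured and 90 injured barcodes, medians 9737.5 and 21719 UMIs), Serpina3n was at 438 and 1002 CPM, a ratio of 2.29 (2.13 to 2.46). In those of 1000 to under 5000 UMIs (418 and 70 barcodes) it was at 341 and 318 CPM, a ratio of 0.93 (0.690 to 1.24), and under 1000 UMIs (157 and 133 barcodes) at 173 and 230 CPM, a ratio of 1.33 (0.679 to 2.61). The 2-fold difference of Serpina3n was therefore found in the deep barcodes, which held 2042 of its 2118 injured UMIs. In barcodes under 8000 UMIs the ratio was 1.11, which ended the call.

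C4b had a ratio of 0.43 (0.329 to 0.552) under 1000 UMIs, from 2124 and 909 CPM. It was 1.69 (1.54 to 1.85) at 1000 to under 5000 UMIs, from 2041 and 3447 CPM, and 1.82 (1.73 to 1.91) in the deep barcodes, from 930 and 1690 CPM. In barcodes with under 0.5% Malat1 (48 uninjured and 133 injured, median 1168.5 and 774 UMIs), the ratio of C4b was 0.65 (0.472 to 0.888) and that of Serpina3n 0.95 (0.525 to 1.77). Such barcodes made up 5.60% of uninjured and 45.4% of injured oligodendrocytes. In the others, with at least 0.5% Malat1, the ratio was 1.48 for C4b and 2.35 for Serpina3n.

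H2-D1 had a ratio of 11.3 (4.51 to 36.4) under 1000 UMIs, 3.06 (2.24 to 4.14) at 1000 to under 5000 UMIs and 4.79 (4.29 to 5.36) in the deep barcodes. H2-K1 had ratios of 4.20 (1.32 to 17.5), 2.66 (1.47 to 4.64) and 2.77 (2.21 to 3.47) in the same order, and B2m 2.88 (0.945 to 10.4), 6.08 (3.49 to 10.6) and 4.44 (3.65 to 5.43). With under 0.5% Malat1, H2-D1 was 7.99 times as high (3.27 to 25.3) and B2m 5.11 times (1.58 to 26.3), while the interval of H2-K1 reached below 1 (2.37, 0.652 to 13.0). In barcodes with no immune marker UMI (781 uninjured and 55 injured), the ratios were 3.35 (2.79 to 4.0) for H2-D1, 2.05 (1.32 to 3.10) for H2-K1 and 4.83 (3.58 to 6.45) for B2m. The ratio of each of the 3 class I genes was thus at least 2 in each of these classes. The intervals of B2m under 1000 UMIs and of H2-K1 with under 0.5% Malat1 included 1, however. Uninjured counts were small there, with 5 UMIs of H2-D1, 4 of H2-K1 and 5 of B2m under 1000 UMIs. With under 0.5% Malat1 they were 5, 3 and 3. In the injured library the immune markers were at 3645 CPM under 1000 UMIs, 931 CPM at 1000 to under 5000 UMIs and 85.9 CPM in the deep barcodes, against 137, 27.5 and 26.4 CPM in the uninjured one. In the barcodes with no immune marker UMI, Serpina3n had a ratio of 2.24 (1.98 to 2.53) and C4b 1.40 (1.28 to 1.52).

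**Figure D3:**
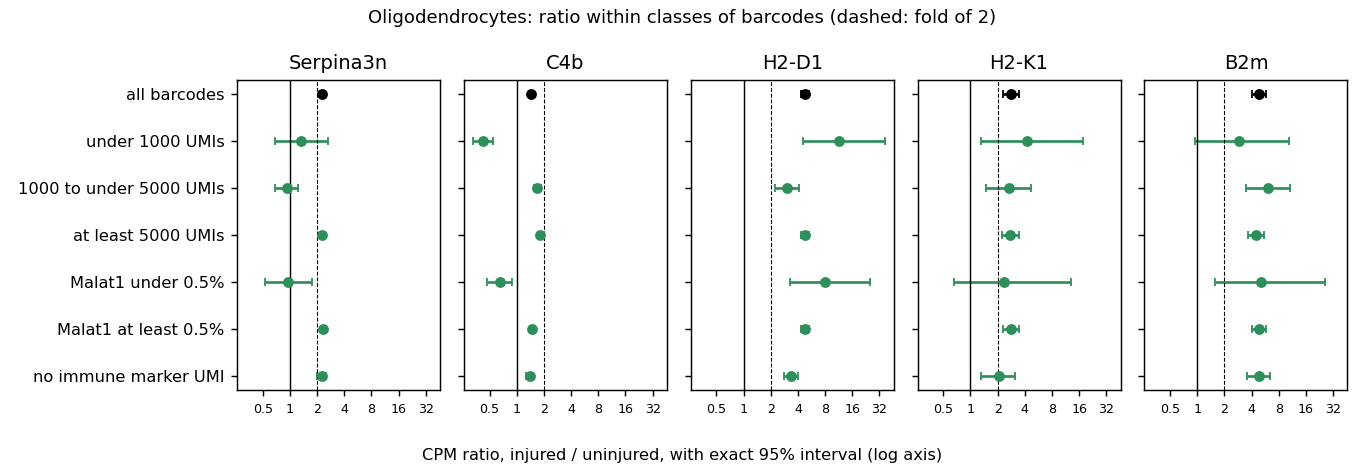
Ratio of CPM, injured over uninjured (log axis), in oligodendrocyte barcodes grouped by total UMIs, Malat1 share and immune markers, with exact 95% intervals. H2-D1 stays between 3.06 and 11.3 in the groups shown, whereas Serpina3n is near 1 under 5000 UMIs (1.33 and 0.93) and C4b is at 0.43 under 1000 UMIs.

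Shares of barcodes with a UMI were compared at equal depth. After each barcode was thinned to 500 UMIs (19 uninjured barcodes left out), the share of oligodendrocytes with H2-D1 was 4.89% (3.53 to 6.58) without and 18.8% (14.5 to 23.7) with injury. B2m was found in 1.19% and 6.14%, and H2-K1 in 2.03% and 5.80%. Serpina3n was found in 14.2% (11.9 to 16.7) and 18.4% (14.2 to 23.4), and C4b in 41.1% (37.7 to 44.5) and 45.4% (39.6 to 51.3), with overlapping intervals. Among deep oligodendrocytes thinned to 5000 UMIs, the share with C4b was 61.3% (55.4 to 67.1) without and 96.7% (90.6 to 99.3) with injury. H2-D1 was found there in 32.3% and 76.7%, B2m in 16.3% and 55.6%, Serpina3n in 75.2% and 95.6% and H2-K1 in 18.1% and 37.8%.

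The deep oligodendrocyte barcodes showed how the genes were spread over cells. C4b was uneven in the uninjured library, where 93 of 282 barcodes (33.0%) had 0 UMIs, the median was 528 CPM and the upper quartile 1777 CPM. In the injured library 1 of 90 had 0, the lower quartile was 1211 CPM and the median 1742 CPM, so that the upper quartiles (1777 and 2297 CPM) differed less than the lower ones. H2-D1 was at 0 in 57.4% of uninjured and 5.56% of injured barcodes, with medians of 0 and 537 CPM. Serpina3n had medians of 317 and 920 CPM, B2m of 0 and 150 CPM and H2-K1 of 0 and 58.9 CPM. The 28 uninjured barcodes with the most H2-D1 UMIs, of 282, held 60.2% of them, and the 9 of 90 injured ones held 29.2%. The ranges of the libraries overlapped for each of the 5 genes.

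**Figure D4:**
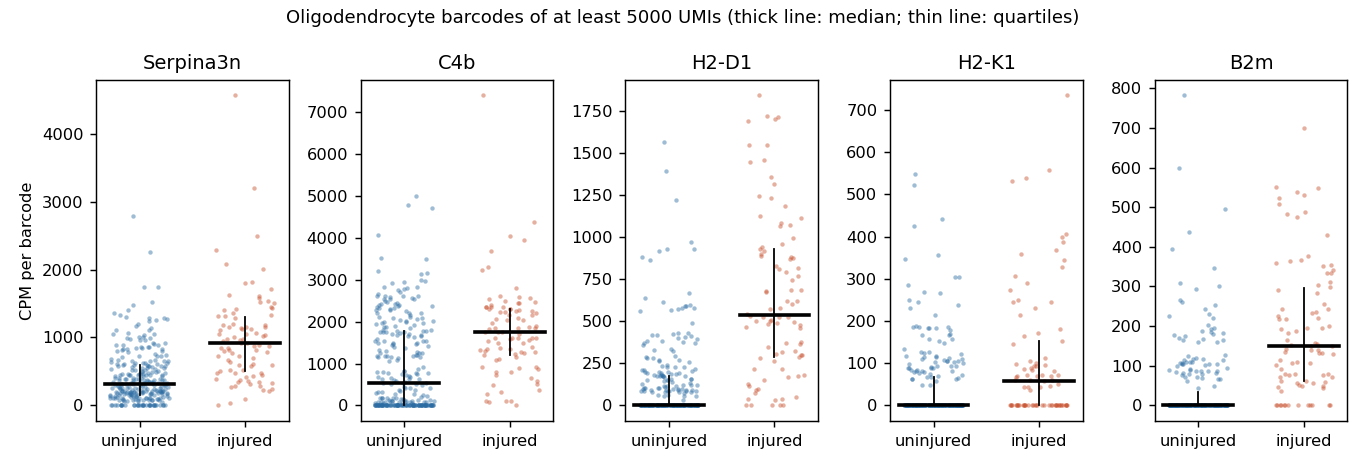
CPM per barcode in oligodendrocytes of at least 5000 UMIs, 282 uninjured (blue) and 90 injured (orange), with each dot a barcode, thick lines the medians and thin lines the quartiles. The median of H2-D1 is 0 CPM in uninjured and 537 CPM in injured barcodes, and that of C4b 528 and 1742 CPM.

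The class I genes varied together among barcodes. Over the 90 deep injured oligodendrocyte barcodes, the Spearman correlation of CPM was 0.66 between H2-D1 and B2m, 0.49 between H2-D1 and H2-K1 and 0.45 between H2-K1 and B2m. Of 7174 genes found in at least 25% of these barcodes, B2m and H2-K1 were the 2 most correlated with H2-D1, followed by Atp13a2 (0.41), Ak3 (0.39) and the interferon-induced gene Ifit2 (0.36). Serpina3n and C4b were less related to them, with correlations with H2-D1 of 0.10 and −0.09, and to each other (0.24). The genes most like Serpina3n were the secreted protease Klk6 (0.57), the lipid carrier Apod (0.55), Col13a1 (0.53), Rhoj (0.51) and transferrin, Trf (0.51). Those most like C4b were Prune2 (0.57), the amyloid precursor App (0.48), the protease Htra1 (0.46), the nuclear RNA Neat1 (0.46) and Kif13b (0.45). Barcodes of 1 library share its preparation, and sparse counts lower a correlation. The correlations with total UMIs were between −0.14 and 0.22 for the 5 members.

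In the 282 deep uninjured barcodes the order was another. Serpina3n and C4b had the highest correlation among the members (0.50), and H2-D1 was related to B2m and to Serpina3n to the same extent (0.32 and 0.32). The 189 barcodes with a C4b UMI held 527 CPM of Serpina3n and the 93 without held 252 CPM, a ratio of 2.10 (1.82 to 2.42) at similar depth (medians 10048 and 9406 UMIs). H2-D1 was at 276 CPM in the 71 barcodes with a B2m UMI and 84.3 CPM in the 211 without, a ratio of 3.27 (2.68 to 4.001). The difference between the libraries in these correlations was not tested.

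**Figure D5:**
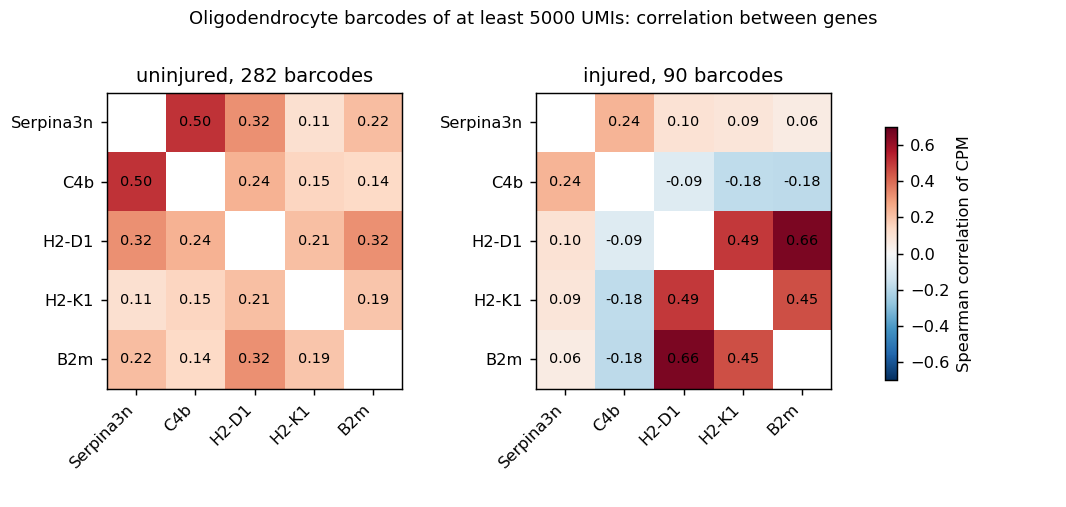
Spearman correlation of CPM between 5 genes over oligodendrocyte barcodes of at least 5000 UMIs, uninjured on the left and injured on the right, with the value in each cell. The class I trio stands out in the injured library (0.66, 0.49 and 0.45) and the pair of Serpina3n and C4b in the uninjured one (0.50).

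The wider pathway was described by lists of genes, whose counts in oligodendrocytes stand beside the 5.98% of all genes called higher and the 4.06% called lower. Among 9 class I heavy chains, the 2 with enough UMIs in oligodendrocytes were H2-D1 and H2-K1, both called higher. All 9 together summed to 180 CPM in uninjured and 775 CPM in injured oligodendrocytes, a ratio of 4.31 (3.96 to 4.70). Of 10 class I assembly genes, 5 were tested, 2 were higher and 0 lower, and their median ratio was 1.31. Besides B2m, the higher one was Pdia3, a disulfide isomerase of the peptide-loading complex, at 201 and 412 CPM (2.05, 1.86 to 2.25). The chaperones Calr (0.97, 0.878 to 1.07) and Canx (1.31, 1.20 to 1.43), which had the most UMIs of the list, were not called.

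Of the 5 immunoproteasome genes, 3 were tested and 0 called, with a median ratio of 1.43. The proteasome activators Psme2 and Psme1 had ratios of 1.09 (0.832 to 1.42) and 1.43 (0.929 to 2.18). The 8 constitutive proteasome subunits, which every cell uses, had 0 called and a median of 0.96, with Psmb1 at 1.13 (1.03 to 1.25) and Psma7 at 0.94 (0.854 to 1.04). MHC class II genes, which mark antigen-presenting immune cells, gave 10 UMIs in uninjured and 48 in injured oligodendrocytes over 7 genes, most of them from Cd74 (4 and 23) and H2-Ab1 (3 and 11), and none was tested.

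Of 14 complement genes, 13 were in the tables and 4 were tested in oligodendrocytes, of which 0 were higher and 1 was lower, with a median of 0.61. The lower one was clusterin, Clu (0.49, 0.314 to 0.735), and Masp1, a protease of the lectin pathway, was at 0.61 (0.523 to 0.706). Of 12 serpins, 3 were tested and 2 were higher: Serpina3n and Serpinb6a (87.5 and 181 CPM, 2.07, 1.79 to 2.38), while Serpinb1a, which had the most UMIs of the list, was at 681 and 443 CPM (0.65, 0.606 to 0.6999).

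A list of 14 genes known from disease-associated oligodendrocytes, 5 of them members and chosen with results of these data known, had 10 called higher in oligodendrocytes, with a median ratio of 4.38. The alarmin Il33 was at 206 and 1322 CPM (6.41, 5.94 to 6.92), and the lysosomal protease Ctsb at 238 and 1211 CPM (5.09, 4.73 to 5.47). Klk6 was at 739 and 3378 CPM (4.57, 4.38 to 4.77), the tetraspanin Cd63 at 267 and 1121 CPM (4.20, 3.91 to 4.51) and Anxa2 at 6.03 and 60.4 CPM (10.0, 6.51 to 16.02). Steap3, a metalloreductase, had 1 UMI in uninjured and 120 in injured oligodendrocytes (interval of the ratio 38.1 to 8612). Ctsb, Cd63 and Anxa2 are also expressed by macrophages, and the part of immune RNA in their ratios was not tested. In NFOs, 8 of the 14 were tested, of which Serpina3n and Ctsb (297 and 693 CPM, 2.33, 1.57 to 3.58) were higher and H2-D1 and H2-K1 lower.

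Of 20 interferon and STAT regulators, 12 were tested in oligodendrocytes, 5 were higher and 0 lower, with a median ratio of 1.38 (all genes 1.03). Socs3, a feedback inhibitor of cytokine receptors, was at 40.5 and 201 CPM (4.97, 4.15 to 5.96), and the kinase Jak1 at 41.2 and 92.9 CPM (2.26, 1.84 to 2.77). The interferon-responsive transcription factors Irf1 (21 and 44 UMIs, 3.78, 2.20 to 6.69) and Irf9 (23 and 43 UMIs, 3.37, 1.99 to 5.86) and the receptor subunit Ifngr2 (24 and 40 UMIs, 3.004, 1.77 to 5.21) were higher at low levels. Stat3, the list's most abundant gene, was at 120 and 140 CPM (1.17, 1.01 to 1.35). Socs3 was also the single tested gene of the list in NFOs, with 4 and 68 UMIs and a ratio of 4.55 (1.70 to 17.2).

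Markers of other cell types were read in the same barcodes. In oligodendrocytes 6 of the 13 immune markers had enough UMIs to be tested. All 6 were higher in the injured library, from 9.46-fold for C1qa (12 and 63 UMIs) to 48.3-fold for Lyz2 (5 and 134 UMIs). The other markers also had a UMI in both libraries, but too few to be called. The range therefore does not describe them, and they need not have been higher. The 8 astrocyte markers summed to 156 CPM in uninjured and 86.0 CPM in injured oligodendrocytes. Of the 3 tested, Sox9 was higher (16 and 36 UMIs, 4.06), the glutamate transporter Slc1a3 lower (0.41) and Gfap at 0.56 (123 and 38 UMIs). In NFOs Gfap had 2 and 91 UMIs, of which 62 lay in the barcode named above. Endothelial markers gave 86 and 13 UMIs in oligodendrocytes over 6 genes, and the 6 pericyte or fibroblast markers 57 and 26. The part of immune RNA in the class I ratios was not tested in any type, and few injured barcodes of NFOs and OPCs had no immune marker UMI (21 and 5).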

How the data were processed

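The data are 2 scRNA-seq libraries of the optic nerve, 1 uninjured and 1 injured (2 weeks after ONC), with 959 and 410 barcodes of the oligodendrocyte lineage and 4414834 and 2771797 UMIs. The authors ran Cell Ranger 1.3 (with bcl2fastq 2.17.1.14) against mm10, removed cells with fewer than 200 genes or over 20% mitochondrial reads, drew equal numbers of cells per library, normalized with Seurat 4.0.3 and typed the cells. The deposited values are normalized expression, the natural log of 1 plus 10000 times a gene's UMIs over all UMIs of the barcode. UMIs were recovered from them by dividing by the value of 1 UMI, and came out whole within 0.001 in 100% of barcodes. The table of both libraries held the same values and was not used.

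UMIs were summed per type and library in Python 3.11.15 (pandas 2.3.3, numpy 2.4.6) with intervals from scipy 1.17.1 and plots from matplotlib 3.10.9. No p-value was computed, because barcodes of 1 library are not replicates. Calls, ranks and medians used genes with at least 50 summed UMIs in a type, ratios are also given for members below it, and the floor for a class at 0 was 3 UMIs over the class. PCR duplicates are collapsed by UMIs, and intervals cover counting error only. No doublet caller was run, and barcodes under 8000 UMIs served as an alternative. In oligodendrocytes these held 301226 of 2302349 injured UMIs and 1711671 of 4149375 uninjured ones. The cut therefore cannot tell doublets from deep single cells. A test used simulated Poisson counts with no spread between barcodes, in which some genes differed 4-fold. The ratio intervals held the true fold for 96.3% of genes in OPCs (997 genes), 95.7% in NFOs (1668) and 96.0% in oligodendrocytes (8580). Of the changed genes 100%, 100% and 99.5% were called, and of the unchanged ones 0.719%, 1.70% and 0.0954%. The intervals assume such counts, so the test checks the calculation only. It cannot show how they hold for UMIs gathered in few barcodes.

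The members, lists and rules were chosen with earlier results of these data known. The text names the members, the genes of each list called in oligodendrocytes or NFOs and its 2 genes with most UMIs, and the 5 genes most correlated with Serpina3n, C4b and H2-D1 in deep injured oligodendrocytes. The results of 2 genes of the lists, 1 of them called lower in oligodendrocytes, are not reported here. Alternatives were the mean CPM over barcodes, median-of-ratios scaling, thinning to 500 UMIs, barcodes of 1000 to under 5000 UMIs, with at least 0.5% Malat1 or with no immune marker UMI, a stricter filter (500 genes or more and 10% mitochondrial UMIs or less), leaving out the barcode with most UMIs, and a minimum of 200 summed UMIs or none. Barcodes with no Gfap UMI, barcodes of at least 5000 UMIs and the motif GAANNGAAA were added after seeing the data. Coordinates are from GENCODE vM21, and promoters from RefSeq (GRCm38.p6).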

Additional observations from a re-analysis of the deposited data

Results flagged for a closer look

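For 3 members the ratio of the injured to the uninjured library lay on opposite sides of 1 in different types with both intervals excluding 1, and the differences between the types were not tested, since each condition has 1 library. H2-D1 had a ratio of 4.83 in oligodendrocytes and 0.48 in NFOs. H2-K1 had 2.80 in oligodendrocytes, 0.30 in NFOs and 0.32 in OPCs. C4b had 1.43 in oligodendrocytes and 0.52 in OPCs.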

How the results depend on the processing

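No paired analysis was possible because each condition has 1 library and no replicate could be left out. The counts and ranges here leave out barcodes under 1000 UMIs and barcodes with under 0.5% Malat1. Of the ratios recomputed, 52 of 55 kept their direction in oligodendrocytes, 48 of 55 in NFOs and 40 of 43 in OPCs. In oligodendrocytes H2-D1 ranged from 3.06 to 4.96, B2m from 4.44 to 6.29 and H2-K1 from 2.05 to 3.45. C4b ranged from 0.95 (mean CPM over barcodes) to 1.82, and Serpina3n from 0.93 (barcodes of 1000 to under 5000 UMIs) to 2.35. In the classes left out, C4b in oligodendrocytes was at 0.43 and 0.65, Serpina3n at 1.33 and 0.95, and H2-D1 at 11.3 and 7.99. In barcodes under 1000 UMIs, Serpina3n in NFOs was at 0.33 (3 and 3 UMIs) and C4b in OPCs at 1.55 (26 and 6 UMIs). Serpina3n in oligodendrocytes lost its call under 8000 UMIs (1.11) and with the mean CPM over barcodes (1.48), leaving 3 of 5 members called. Thinned to 500 UMIs, Serpina3n was at 1.58 and C4b at 0.99, and 1 member, H2-D1 (4.23), was called higher of the 3 that kept 50 UMIs, in place of 4 of 5. In NFOs the ratio of H2-D1 turned to 1.11 with the mean CPM over barcodes and 1.12 after thinning, and that of H2-K1 to 1.26 with the mean CPM and 1.04 at 1000 to under 5000 UMIs. The count of members called higher in NFOs was 0 after thinning and 0 in barcodes with no immune marker UMI, where 0 and 1 members kept 50 UMIs. Serpina3n in NFOs ranged from 2.10 to 27.8. In OPCs C4b ranged from 0.44 to 1.3003. The causes were not tested. Depth also limits uninjured NFOs (94130 UMIs) and injured OPCs (117597 UMIs).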

Other observations

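In the deep uninjured oligodendrocyte barcodes, the genes most correlated with C4b among 4606 were the tetraspanin Cd9 (0.60), Serpina3n (0.50), Tmem176b (0.46), Cd63 (0.46) and Masp1 (0.46). Those most correlated with Serpina3n were C4b (0.50), Trf (0.45), Klk6 (0.40), Masp1 (0.37) and Aldh1l2 (0.34). H2-D1 was most correlated with B2m (0.32), Serpina3n (0.32), Klk6 (0.30), Tmsb4x (0.28) and Anxa5 (0.26). These genes were named after their values were seen. Klk6 and Trf were among the first 5 for Serpina3n in both libraries, and B2m was the first for H2-D1 in both.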
